A study of Homo sapiens with 9 samples.

Results

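The untreated expression program of Ramos cells, a line established from a human Burkitt lymphoma, was described from the 3 arrays of cells given phosphate-buffered saline (PBS) for 48 h. These are 3 of the 9 arrays of the series. The other 6 come from Ramos cells given HDL NPs (high-density lipoprotein-like nanoparticles) or human HDL, each at 40 nM for 48 h, and they were not used here except in 1 alternative normalization. All 9 samples came from the same line at passage 10 to 15, with no genetic change introduced, and PBS was the vehicle control. The replicates are stated to be biological, but they are cultures of 1 line, so the spread between arrays holds no variation between patients. Each array averages a whole culture, in which fewer cells of a type and less RNA per cell cannot be told apart.

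Burkitt lymphoma is a tumor of germinal centre B cells, the dividing cells in which antibody genes are mutated and selected. It is defined by a translocation that places the transcription factor gene MYC under an immunoglobulin enhancer, and its cells divide rapidly, display B-cell receptors, keep the germinal centre factor BCL6 and hold little BCL2. Its recurrent mutations fall in the TCF3 and ID3 circuit, in cyclin D3 and in the GNA13 pathway. A mature B cell of this kind is known to use lineage-restricted members of many gene families, such as the kinases BLK, LYN, SYK and BTK below the receptor, while genes of other lineages are silent.

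Total RNA was labelled and hybridized to Illumina HT-12 bead arrays, on which each probe is a short oligonucleotide. The deposited table gives, for each of 47323 probes, an intensity and a detection p-value, the rank of the probe among negative control probes, in steps of 1 over 770. Mean intensity was 246, 278 and 229 on PBS arrays 1, 2 and 3, and 35.7%, 36.8% and 35.0% of the probes had a detection p under 0.05. The 30113 probes with 1 gene symbol covered 19951 genes. A gene was classed by the number of PBS arrays (3, 2, 1 or 0) on which its best probe had a detection p under 0.05, so that a gene counted as undetected only where no probe of it was detected on any PBS array. Signals are log2 intensities after background correction and quantile normalization of the 3 arrays, read from the brightest probe of a gene, and a percentile is the place of that signal among the 19951 genes. Since probes differ in how well they bind, the order is one of signals and not of RNA amounts. No test was made, because there is 1 condition.

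The genes fell into 2 large classes with few in between. Of 19951 genes, 8662 (43.4%) were detected on 3 of 3 PBS arrays and 8602 (43.1%) on 0, with 860 (4.31%) detected on 2 and 1827 (9.16%) on 1. Genes detected on 3 arrays spanned mean signals of 4.57 to 14.05, with a median of 7.02, and genes detected on 0 arrays spanned 4.13 to 4.53. The genes detected on 1 or 2 arrays reached at most 4.79 and 5.14, so they lay at the edge of the background. Protein-coding genes made up 95.9% of those detected on 3 arrays and 83.2% of those detected on 0. By kind of transcript, 46.8% of 17736 protein-coding genes, 25.5% of 518 transcribed pseudogenes, 20.1% of 279 snoRNA genes, 15.6% of 755 lncRNA genes and 2.9% of 561 microRNA genes were detected on 3 arrays.

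The 3 arrays gave nearly the same picture of the detected genes. Across the 8662 genes detected on 3 arrays, Pearson's r between pairs of arrays was 0.993 to 0.994, and 96.5% to 97.0% of genes lay within 0.5 of each other on the log2 scale. The correlation is across genes, which are not independent replicates. It covers only genes detected on all 3 arrays, after quantile normalization gave the arrays the same distribution, and both favor agreement. The median SD over the 3 arrays was 0.117 for these genes. Among the genes detected on 0 arrays the same correlation was 0.224 to 0.245, so their order carries little and is not used below. Their mean signals spanned only 4.13 to 4.53, and so narrow a range itself lowers a correlation. The 5 detected genes with the widest spread were TELO2 (SD 0.88, with signals of 7.34, 5.69 and 5.96), SERP1 (SD 0.74), TRIM16L (SD 0.68), TCTA (SD 0.63) and PPID (SD 0.63). TELO2, a chaperone adaptor for large kinases, was high on array 1 alone.

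All 6 genes taken as markers of the line were detected on 3 arrays, against 43.4% of all genes. CD79B, a signalling chain of the B-cell receptor, had signals of 12.55, 12.44 and 12.71, a mean of 12.57 ± 0.14 (SD, n = 3). Its partner chain CD79A had 11.60, 11.46 and 11.49, a mean of 11.52 ± 0.07. Their percentiles were 99.5 and 98.6, far from the background. BCL6, the repressor that maintains the germinal centre state, had 9.48, 9.39 and 9.20. MME, the surface enzyme CD10, had 9.10, 9.02 and 9.0 on 1 probe. Its other probes were near background with means of 4.59, 4.41 and 4.39, detected on 2, 0 and 1 arrays. CD22, an inhibitory coreceptor, had 5.61, 5.51 and 5.16. MYBL1, a transcription factor of dividing germinal centre cells, had 4.64, 4.99 and 5.06, just above the highest undetected gene at 4.53. CD22 and MYBL1 were thus low on 1 probe each. The markers were chosen with earlier results of these data known, so their detection is no independent check of the label of the line.

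**Figure D1:**
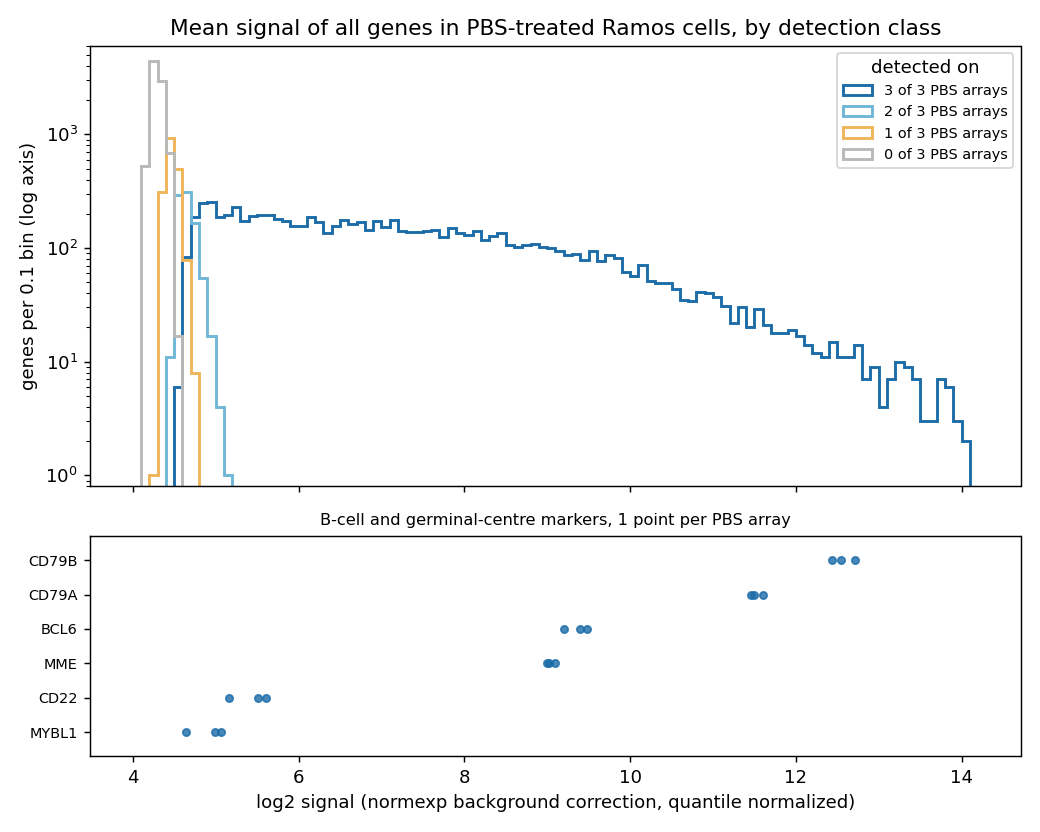
Upper panel: number of genes per 0.1 of mean log2 signal over the 3 PBS arrays (log axis), as 1 line for each detection class. Lower panel: log2 signal of the 6 marker genes on the brightest probe of each, 1 point per PBS array. Undetected genes end at 4.53, while CD79B, CD79A, BCL6 and MME lie far to the right and MYBL1 starts at 4.64.

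Most genes of the B-cell list were detected. Of 23 measured B-cell genes, 18 were detected on 3 arrays (78.3%, against 43.4% of all genes), with a median percentile of 78.5, against 50 over all genes. FCRLA, an Fc receptor-like protein of germinal centre B cells, had a mean signal of 12.56 ± 0.16. TCL1A, a coactivator of AKT kinase, had 12.46, 12.43 and 12.44. BANK1 and CD180 were detected on 2 arrays, the adaptor BLNK on 1, and CR1 and PAX5 on 0. PAX5, the factor that defines B-cell identity, had 4.31, 4.21 and 4.28 on its 1 probe, inside the range of undetected genes. MS4A1, which encodes CD20 and was singled out after its values were seen, was read from 3 probes with means of 5.04, 4.43 and 4.33, detected on 3, 1 and 0 arrays. A probe at background bounds what that probe can read and does not show that the transcript is missing.

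Most germinal centre and plasma cell genes were detected. Of 18 measured germinal centre genes, 15 were detected on 3 arrays (83.3%), led by IRAG2 at 10.77 ± 0.10, BCL6, MME and GNA13. NEIL1 and SERPINA9 were detected on 2 arrays. S1PR2, the receptor that confines B cells to the germinal centre, was detected on 0, whereas GNA13, the G protein it signals through, had 8.95, 8.88 and 8.82. Dark zone genes were detected in 7 of 8 cases, with CXCR4, the receptor that draws cells into that zone, at 8.96, 8.85 and 8.83. Light zone genes were detected in 6 of 10 cases. CCR6 was the brightest of them at 12.04, 11.77 and 11.86, but on 1 probe. Its other probes had means of 4.57 and 4.25, detected on 2 and 0 arrays. CD44 and BATF were detected on 0 arrays and BCL2A1 and TRAF1 on 1.

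Of 11 plasma cell genes, 10 were detected on 3 arrays (90.9%, against 43.4% of all genes). JCHAIN, which joins antibody units, had 11.41, 11.66 and 11.30, and XBP1, the factor of the secretory program, had 10.82, 10.81 and 10.72. MZB1 and FKBP11, both of the endoplasmic reticulum, had means of 10.43 ± 0.10 and 10.41 ± 0.04. Some detected members were near background, with SLAMF7 at 4.67, DERL3 at 4.71 and SDC1 at 5.10 on 1 probe. The other SDC1 probes had means of 4.26 and 4.17 and were detected on 0 arrays. PRDM1, the repressor that drives the final step to a plasma cell, was detected on 0 arrays by any of its 4 probes. Of 8 naive and memory B-cell genes, 5 were detected on 3 arrays, with FCRL4 and CD44 on 0.

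Of 13 early B progenitor genes, 5 were detected on 3 arrays (38.5%, against 43.4% of all genes) and 5 on 0 (38.5%, against 43.1%), so the list as a whole stood near the background. RAG2, DNTT, KIT, FLT3 and CRLF2, which mark cells that are still rearranging antibody genes or are less mature, were detected on 0, and RAG1, CD34 and ERG on 1. VPREB1 and IGLL1, both parts of the surrogate light chain, were detected on 3. IGLL1 was among the 25 brightest genes with 13.73, 13.76 and 13.70 on 1 probe, yet its other probes had means of 6.68 and 5.34. IGLL1 is closely similar in sequence to the immunoglobulin lambda constant genes, which were not analysed here, so the gene behind the bright probe is uncertain.

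**Figure D2:**
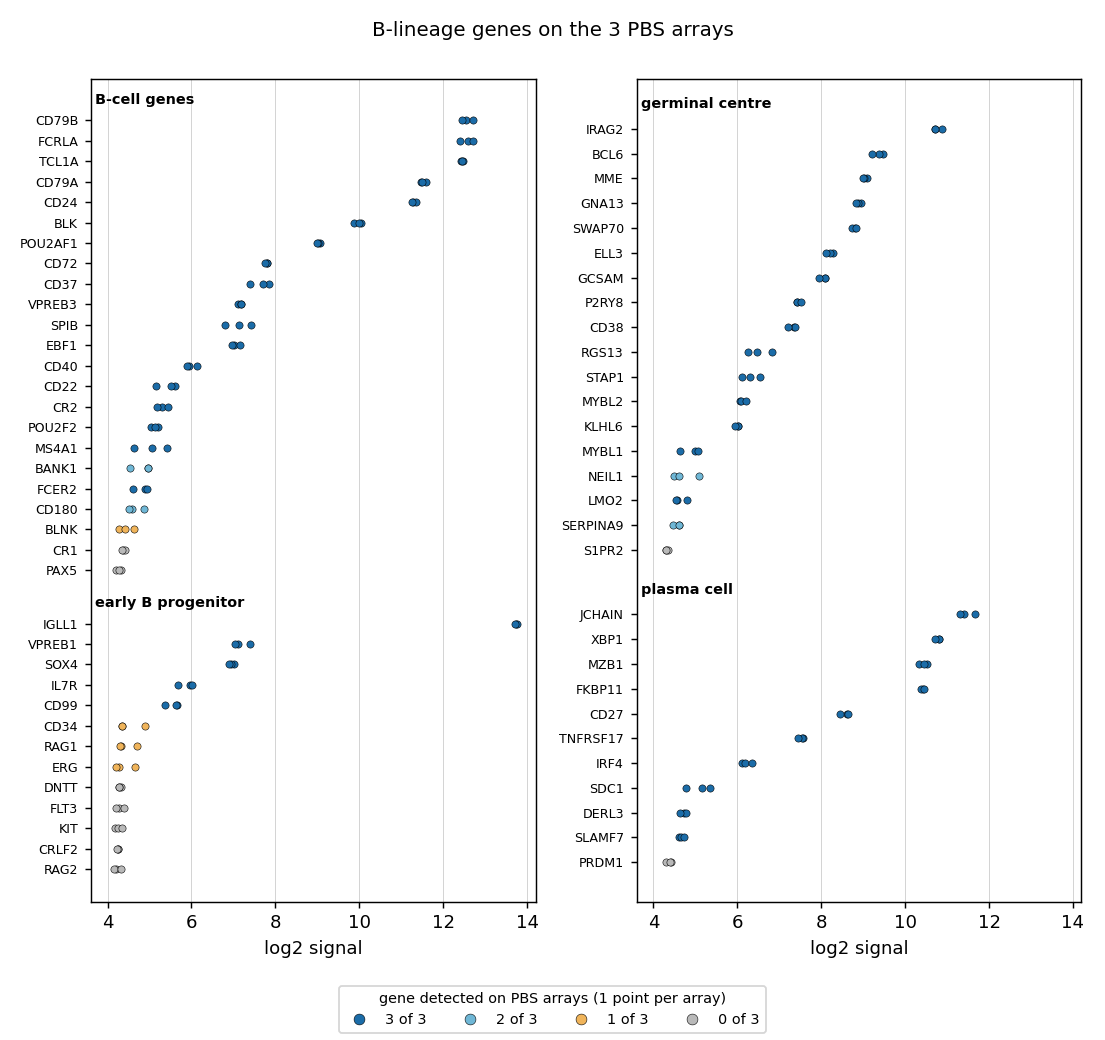
Log2 signal (horizontal axis) of every measured B-cell, germinal centre, plasma cell and early B progenitor gene, 1 point per PBS array, with the color giving the number of PBS arrays on which the gene was detected. Genes are placed by signal within each list, and PAX5, CR1, S1PR2 and PRDM1 sit with RAG2 and KIT at background.

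Genes of other lineages were mostly at background. Of 19 T-cell genes, 2 were detected on 3 arrays and 13 on 0, with a median percentile of 26.4. CD3D, CD3E and CD3G, the chains that define the T-cell receptor complex, were detected on 0 arrays. CD247, the zeta chain of that complex, had 7.82, 7.83 and 7.87, and the kinase LCK had 4.70, 4.67 and 4.73. Of 16 natural killer genes, TBX21, a transcription factor also known in activated B cells, was detected on 3 arrays at 5.59 ± 0.08, and GZMA, GZMB and PRF1 were detected on 0. Of 19 myeloid genes, CD68 (6.34 ± 0.17) and CD14 (4.69 ± 0.14) were detected on 3, while CSF3R, MPO, S100A9 and TYROBP were detected on 0.

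Epithelial, mesenchymal, liver and red cell genes were also mostly at background. Of 15 epithelial genes 0 were detected on 3 arrays, with CLDN4 and EPCAM on 2 and KRT20, MUC1 and KRT19 on 1. Leaving out PBS replicate 2 or 3 and asking for detection on both arrays left, a looser rule that can only add genes, gave 1 such gene. Of 16 mesenchymal and endothelial genes, ACTA2 was detected on 3 arrays (5.39 ± 0.03), with 2 detected without PBS replicate 1. Of 12 hepatocyte genes, ALB was detected on 3 (5.06 ± 0.17), with 2 detected without PBS replicate 3. Of 15 erythroid and platelet genes, GP1BA was detected on 3 (6.21 ± 0.02), with 2 detected without PBS replicate 2, and the globin genes HBA1, HBA2, HBB, HBD, HBG1 and HBG2 were detected on 0. Of 13 neuronal genes 3 were detected on 3 arrays. The exception in signal was TUBB3, the neuronal beta tubulin, at 10.24, 10.16 and 10.40, and tubulin genes are similar enough in sequence that its 1 probe may not be specific.

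**Figure D3:**
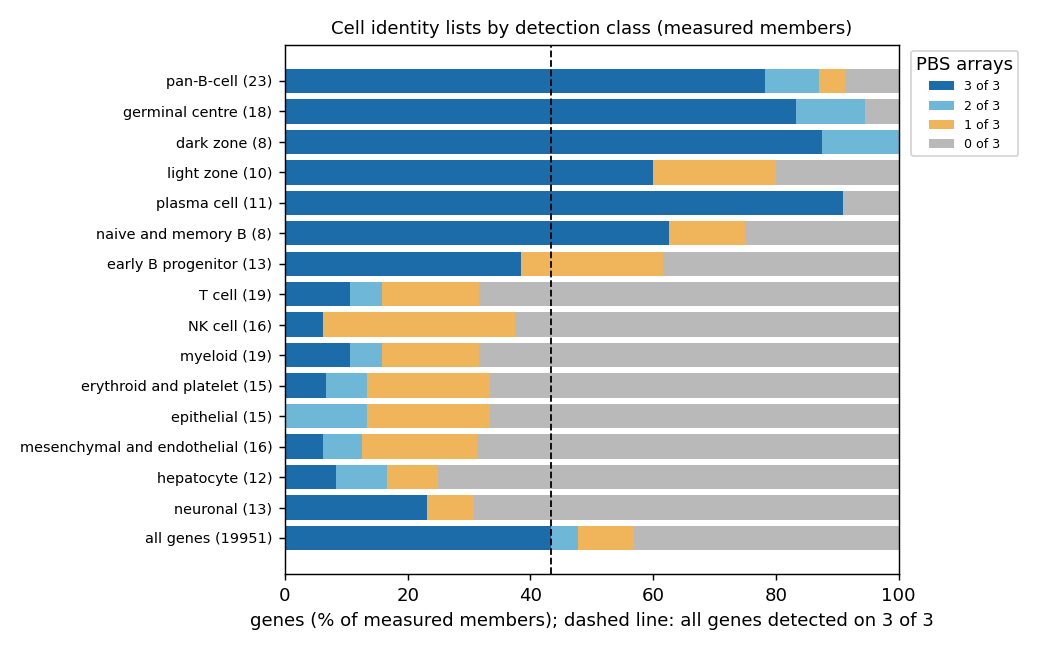
Share of the measured members of each cell identity list (number in brackets) detected on 3, 2, 1 or 0 PBS arrays; the dashed line marks the 43.4% of all genes detected on 3. The B-cell, germinal centre, dark zone and plasma cell lists lie above the line and every non-B lineage list lies below it.

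The sequence in front of the detected genes also differed from that in front of the undetected ones. RefSeq promoter sequences of GRCh38.p14 were matched by symbol to 14971 genes, 14412 of them protein-coding, and the 250 bases before the annotated start were read. CpG dinucleotides are normally depleted in the human genome and kept in CpG islands, which cover the starts of most broadly used genes. The median CpG count was 21.0 for genes detected on 3 arrays, 18 for those on 2, 14 for those on 1 and 9 for those on 0, and the median over all protein-coding genes was 18. Observed over expected CpG exceeded 0.6 in 83.9% of 7054 promoters of genes detected on 3 arrays, in 43.3% of 5556 promoters of genes detected on 0 and in 64.9% of all. Among the genes detected on 3 arrays the share was 77.4% in the lowest of 4 equal groups by signal and 87.4% in the highest. Of 17 B-cell genes with a promoter, 4 (23.5%) exceeded 0.6. These were CD24, TCL1A and CR2, detected on 3 arrays, and PAX5, detected on 0 by its 1 probe.

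Both kinds of promoter occurred on either side of detection, and 4 are printed to show this. They were chosen after the values were seen, as a detected and an undetected gene of each kind. Capitals mark CpG in the promoters of CCND3 (cyclin D3, detected on 3 arrays, 26 CpG), PAX5 (detected on 0, 27 CpG) and CD3D (detected on 0, 4 CpG). PAX5 was read from 1 probe, and its place at background does not show that the transcript is missing. In VPREB3, a B-cell gene detected on 3 arrays whose promoter has 1 CpG, capitals mark an octamer, ATTTGCAT, the reverse complement of ATGCAAAT. Each runs 5′ to 3′ on the strand of the gene and ends at the base before the start.
CCND3, chr6:42048689-42048938, minus strand: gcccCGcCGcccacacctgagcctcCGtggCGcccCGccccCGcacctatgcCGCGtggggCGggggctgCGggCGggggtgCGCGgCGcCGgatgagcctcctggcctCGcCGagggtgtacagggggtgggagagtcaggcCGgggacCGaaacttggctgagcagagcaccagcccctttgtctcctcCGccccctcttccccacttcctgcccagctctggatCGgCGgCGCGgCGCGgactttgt
PAX5, chr9:37034269-37034518, minus strand: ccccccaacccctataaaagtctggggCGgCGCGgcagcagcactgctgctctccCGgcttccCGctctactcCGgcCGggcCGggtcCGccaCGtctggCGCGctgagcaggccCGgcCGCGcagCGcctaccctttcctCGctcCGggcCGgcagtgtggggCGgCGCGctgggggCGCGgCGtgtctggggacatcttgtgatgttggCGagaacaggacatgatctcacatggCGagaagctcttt
VPREB3, chr22:23754426-23754675, minus strand: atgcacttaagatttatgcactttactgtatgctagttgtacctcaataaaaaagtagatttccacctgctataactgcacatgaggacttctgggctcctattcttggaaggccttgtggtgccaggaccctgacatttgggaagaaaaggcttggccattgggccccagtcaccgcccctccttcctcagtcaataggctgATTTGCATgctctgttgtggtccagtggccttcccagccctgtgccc
CD3D, chr11:118342706-118342955, minus strand: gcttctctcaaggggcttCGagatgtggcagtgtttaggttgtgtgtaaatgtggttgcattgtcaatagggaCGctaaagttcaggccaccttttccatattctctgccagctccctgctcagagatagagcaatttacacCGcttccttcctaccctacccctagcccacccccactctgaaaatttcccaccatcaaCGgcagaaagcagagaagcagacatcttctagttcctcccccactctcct

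Short motifs were counted on both strands of the same 250 bases, as letters and not as sites. The octamer ATGCAAAT, the element of immunoglobulin promoters that OCT factors bind, was present in 1.25% of promoters of genes detected on 3 arrays, 2.18% of those detected on 0 and 1.63% of all. Of the B-cell and germinal centre lists, VPREB3 carried it 47 bases before the start, CR1 at 87 bases and SERPINA9 at 96 and 133 bases, and these were detected on 3, 0 and 2 arrays. TATAAA was present in 5.03% of promoters of genes detected on 3 arrays, 13.8% of those detected on 0 and 9.03% of all. CCGGAAG, the core that ETS factors read, went the other way with 18.1%, 5.29% and 12%. CACGTG, the E-box that MYC and MAX bind, was present in 9.54%, 5.85% and 7.83%. CCGGAAG and CACGTG hold a CpG themselves, and the part of base composition in these shares was not tested.

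The brightest signals came from the machinery of translation. RPL41 was first with 14.05 ± 0.06 (SD, n = 3) on 1 probe, although its other probe had 5.82 ± 0.08 and the mean over both put it at the 96.7th percentile. It was followed by RPS12 (14.01 ± 0.04), RPLP2 (13.99 ± 0.07), RPS16 (13.95 ± 0.05) and the elongation factor EEF1A1 (13.94 ± 0.10). Of the 25 brightest genes, 15 were ribosomal protein genes or their pseudogenes, as were 49 of the 100 brightest. The 3 pseudogenes among the 25, RPL13AP5, RPSAP9 and RPL13AP20, are near copies of RPL13A and RPSA, so the transcripts behind them are uncertain. The others were ENO1, an enzyme of glycolysis (13.80 ± 0.03), LAIR1, an inhibitory immune receptor (13.77 ± 0.07), IGLL1, PPIAL4A, TPT1, OAZ1, TUBA1A, CLUAP1 and TMSB4X. PPIAL4A is a retrocopy of the cyclophilin gene PPIA, and PPIA itself had 6.85 ± 0.12 on its 1 probe. The remaining ribosomal protein genes among the 25 were RPS27, RPS19, RPL18, RPLP1, RPS10, RPL6, RPL27A and RPS25.

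Families that serve every dividing cell were detected almost in full. Of 76 cytosolic ribosomal protein genes 73 were detected on 3 arrays (96.1%), with RPL10L, known as a testis form, on 1. All 76 mitochondrial ribosomal protein genes, all 19 ATP synthase genes matched by symbol and all 16 cytosolic aminoacyl-tRNA synthetase genes were detected on 3. The counts were 41 of 44 for the proteasome, 32 of 36 for complex I, 49 of 55 for initiation factors, 25 of 28 for heterogeneous nuclear ribonucleoproteins, 10 of 11 for the T-complex chaperonin and 8 of 9 for the MCM family, which holds the replicative helicase. MCM7 led the last with 12.40, 12.46 and 12.35. PSMB11, the thymus form of a proteasome subunit, was detected on 1 array. Not all members missed were tissue forms, since the complex I genes NDUFB4 (4.61) and NDUFS1 (4.47) were also detected on 1 array. The median percentiles of these families were 89.7 to 99.6, against 50 over all genes.

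Families of specialised tissues were nearly empty. Of 384 olfactory receptor genes 2 were detected on 3 arrays (0.5%), OR13A1 at 5.37 ± 0.12 and OR9A4 at 5.30 ± 0.13, with 6 and 9 detected on both arrays left without PBS replicate 1 and 3. Of 27 taste receptors, 37 beta-defensins, 24 matrix metalloproteinases, 17 type I interferons and 42 GABA and glutamate receptors, 0 were detected on 3 arrays, and GABRE was detected on 2. Without PBS replicate 2, 1 receptor gene of the last family was detected on both arrays left. Of 49 keratins, KRT10 alone was detected on 3, at 9.22, 9.21 and 9.31. Of 81 keratin-associated proteins 1 was detected on 3 arrays (2 without PBS replicate 2), and of 68 protocadherins 1, PCDHGB6 (2 without PBS replicate 2 or 3). Collagens (3 of 45) and cytochrome P450 enzymes (3 of 58) were low in the same way, though 5 collagens were detected without PBS replicate 3 and 7 P450 genes without PBS replicate 2. The P450 genes on 3 arrays were CYP2R1, which hydroxylates vitamin D, CYP20A1 and CYP51A1 of sterol synthesis.

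Large regulatory families lay between these ends. Of 483 ZNF zinc finger genes 223 were detected on 3 arrays (46.2%, against 43.4% of all genes), and of 395 solute carriers 149 (37.7%). SLC25A5, the ADP and ATP carrier of mitochondria, had 12.91 ± 0.05, and SLC7A5, the large amino acid transporter, had 11.42 ± 0.17. Of 29 HOX genes 5 were detected (17.2%), HOXB7 (7.06 ± 0.13), HOXC6, HOXC4, HOXB4 and HOXC13. Of 47 FOX genes 16 were detected (34.0%) and of 19 SOX genes only SOX4 (5.3%). Of 43 chemokines 7 were detected (16.3%), led by CCL3L3 at 11.02, 10.85 and 11.20, CCL3L1 and CCL4L1. CCL3 itself had 9.58, 9.33 and 9.69. These chemokines attract immune cells and are known targets of B-cell receptor signals, and the copies are too similar in sequence to be told apart. Of 37 cancer-testis genes 9 were detected (24.3%), the GAGE copies among them, with GAGE4 at 8.47 ± 0.19.

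Histone genes were detected in 26 of 79 cases (32.9%, against 43.4% of all genes), led by the variants and copies H2AZ1 (13.28 ± 0.08), H3-3A and H4C3. Of 35 interferon-induced genes 18 were detected (51.4%), near the share of all genes, with the exonuclease ISG20 (10.99 ± 0.10), IFITM2 and IFI16 the brightest. Of 19 S100 genes, which encode calcium-binding proteins, 6 were detected (31.6%), led by S100A10 and S100A4. Of 24 killer cell and leukocyte Ig-like receptors LILRB3 (10.78 ± 0.12) and LILRB1 (9.57 ± 0.12), both inhibitory receptors, were detected on 3 arrays (8.3%).

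**Figure D4:**
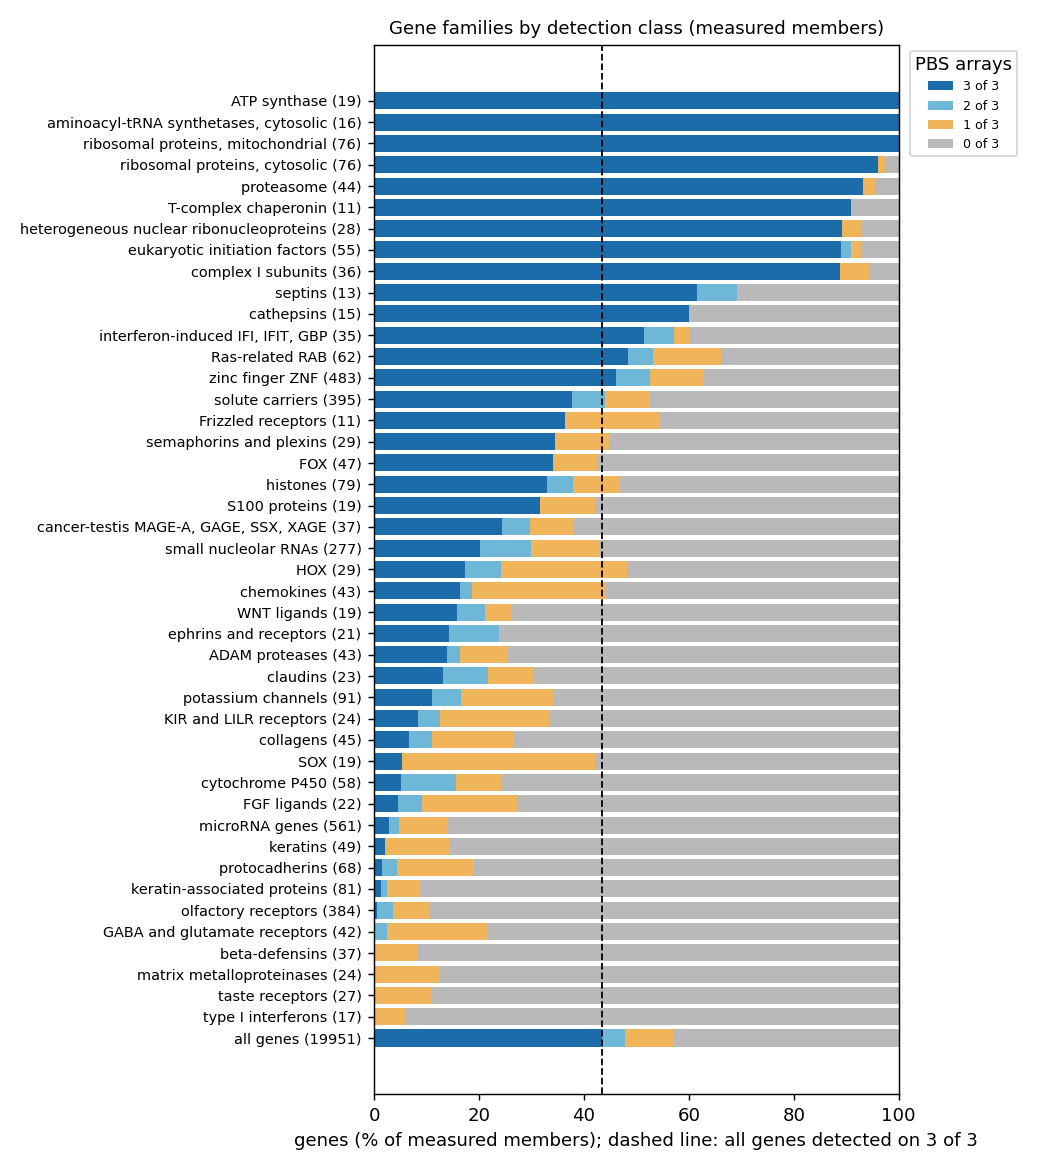
Share of the measured members of each gene family of at least 11 genes (number in brackets) detected on 3, 2, 1 or 0 PBS arrays, ordered by the share on 3, with all genes in the last row and as a dashed line. Ribosomal, proteasome and ATP synthase families fill the row, and olfactory receptors, keratins and defensins leave it almost empty.

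Within families of close relatives, some members were read far above background and others not at all. Among the SRC-family kinases, which start signalling below antigen receptors, BLK had 9.88, 10.05 and 10.00, LYN 9.30, 9.38 and 9.05, and FGR 8.60, 8.24 and 8.65. FYN (6.27 ± 0.19) and LCK (4.70 ± 0.03) were also detected on 3 arrays, and SRC, FRK and YES1 on 0. SYK and BTK, the next kinases of the B-cell receptor pathway, had 9.43 ± 0.07 and 9.51 ± 0.10, while their T-cell counterparts ZAP70 and TXK were detected on 0. PLCG2, the phospholipase below BTK, had 9.88, 9.73 and 9.98. The leukocyte PI 3-kinase subunits PIK3CG (7.82 ± 0.13) and PIK3CD (7.30 ± 0.13) were detected on 3 arrays and PIK3CB on 2, at 4.65, 5.14 and 4.39. VAV1 and VAV2 were detected on 3 and VAV3 on 0, and of the protein kinase C genes PRKCB was the brightest at 8.79 ± 0.11.

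Among transcription factors, several known from B cells were read well above background, but PAX5 was not. IRF8, a factor of germinal centre B cells, had 10.85, 10.82 and 10.92, and 7 of 8 interferon regulatory factors were detected on 3 arrays. IRF4, which rises on the way to plasma cells, had 6.11, 6.19 and 6.34. ETS1 (10.39 ± 0.03), ELF1 (10.16 ± 0.15), the octamer coactivator POU2AF1 (9.02 ± 0.03) and SPI1 (7.91 ± 0.03) were detected on 3. All 4 RUNX and CBFB genes, all 5 NF-kappaB subunits and 4 of 5 Ikaros genes were detected on 3, whereas 0 of 9 PAX genes, PAX5 among them, and 0 of 6 GATA genes were. MYB had 9.92, 9.86 and 9.87. Of 4 JAK kinases TYK2 (8.69 ± 0.13) and JAK1 (6.05 ± 0.07) were detected on 3 and JAK2 and JAK3 on 0. STAT6, which carries the interleukin 4 signal, had 7.72 ± 0.07, and STAT4 was detected on 0.

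MYC, the gene that defines the tumor, had a mean of 10.92 ± 0.08 on 1 probe, with the lowest array at 10.84, and its other probe had 8.81, 9.11 and 8.92. Both probes were detected on 3 arrays. Its relatives MYCN and MYCL were detected on 0. Of the 13 measured genes of the MYC and MAX network 10 were detected on 3 arrays, MAX at 5.08 ± 0.20. Of 24 measured genes recurrently mutated in Burkitt lymphoma, 23 were detected on 3 arrays (95.8%), with a median percentile of 89.0. ID3, an inhibitor of E proteins, had 11.76, 11.82 and 11.94, and its target TCF3 had 9.49, 9.37 and 9.52. ID1 and ID2 were also detected and ID4 was not. SMARCA4 (10.61 ± 0.19), ARID1A (8.93 ± 0.15), DDX3X (9.05 ± 0.19) and FOXO1 (7.33 ± 0.06) were detected, and KMT2D, a histone methyltransferase, was detected on 0. Of 18 genes known from the activated B-cell type of diffuse large B-cell lymphoma, 9 were detected on 3 arrays (50%, against 43.4% of all genes). Another 8 were detected on 0 (44.4%, against 43.1%), so this list stood near the shares of all genes. PTPN1 (8.63 ± 0.08) was the brightest of it.

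The cell-cycle genes showed a strong choice among the D cyclins. CCND3 had 12.58, 12.51 and 12.67, while CCND1 had 4.19, 4.2 and 4.23 and CCND2 had 4.3, 4.33 and 4.54, both detected on 0 arrays. CCNE1, CCNA2, CCNB1 and CCNB2 were detected on 3 arrays, and CCNE2, CCNA1 and CCNB3 on 0. CDK4 (11.17 ± 0.12), CDK1, CDK6 and CDK2 and all 8 E2F genes, with E2F2 at 11.09 ± 0.19, were detected on 3. The CDK inhibitors CDKN1A (10.58 ± 0.13) and CDKN2A (8.64 ± 0.08) were detected, CDKN2A with 8.72, 8.64 and 8.55. Both are known brakes of the cycle and were read well above background in these dividing cells, but not on every probe. The other CDKN1A probe had a mean of 4.36 and was detected on 0 arrays. CDKN2A had 8.64 and 8.63 on separate probes, and a further probe had 4.22, detected on 0 arrays. Of 9 measured genes of the p53 pathway 5 were detected on 3 arrays (55.6%, against 43.4% of all genes), with MDM2 on 1.

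Among the survival proteins, BCL2L1 had 8.29, 8.18 and 8.19 and MCL1 had 7.78, 7.71 and 8.02. BCL2 had 6.01, 5.95 and 5.93 on its brightest probe, with means of 5.43, 4.36 and 4.32 on the other 3, detected on 3, 1 and 0 arrays. BCL2A1 was detected on 1 array and BCL2L2 and BCL2L10 on 0. Of 11 pro-apoptotic members 10 were detected on 3 arrays, led by BIK (9.13 ± 0.14), BAX (8.60 ± 0.20), HRK (8.16 ± 0.13) and PMAIP1 (7.78 ± 0.35). Of the DNA methyltransferases, DNMT1, which copies methylation at replication, had 11.65, 11.32 and 11.78 and DNMT3B had 5.89 ± 0.11, while DNMT3A and DNMT3L were detected on 0. All 7 polycomb complex genes were detected, with SUZ12 at 10.72 ± 0.06, the catalytic subunit EZH2 at 8.06 ± 0.05 and EZH1 at 4.70 ± 0.13. UNG (10.13 ± 0.06) and MSH6 (10.31 ± 0.08), which process the lesions of somatic hypermutation, were detected, and POLH was detected on 2 arrays.

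**Figure D5:**
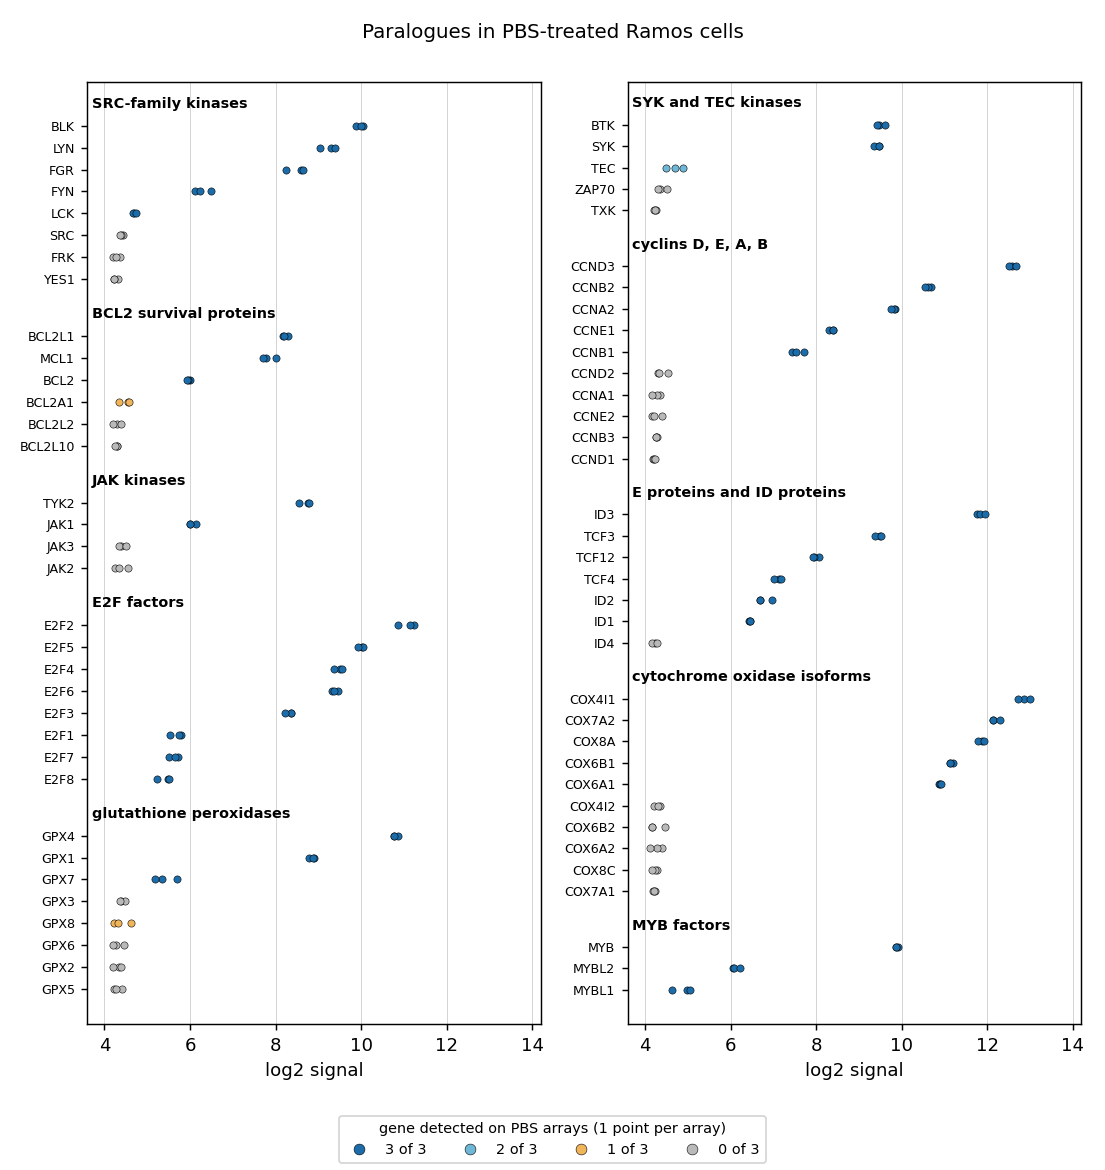
Log2 signal (horizontal axis) of the measured members of 10 groups of related genes, 1 point per PBS array, with the color giving the number of PBS arrays on which the gene was detected. In most groups detected members such as CCND3 (12.51 to 12.67) and undetected ones such as CCND1 (4.19 to 4.23) are far apart.

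Surface receptor families were detected in part. Of 17 chemokine receptors 5 were detected on 3 arrays (29.4%, against 43.4% of all genes). CCR6 and CXCR4 are given above, ACKR3 had 7.09 ± 0.14, CCR7 6.08 ± 0.20 and CXCR5, the follicle-homing receptor, 5.16 ± 0.38. TLR10 (8.17, 7.90 and 8.06), TLR7 (6.18 ± 0.09), TLR9 (5.07 ± 0.16) and TLR6 were detected, 7 of 14 in the list with its adaptors, and TLR2, TLR3, TLR4, TLR5 and TLR8 were not on any array. Both CD70 (9.82 ± 0.17) and its receptor CD27 (8.57 ± 0.10) were detected. Of 25 interleukin genes 4 were detected on 3 arrays, with IL18 at 9.81, 9.54 and 9.75 and the anti-inflammatory IL10 at 8.01, 8.05 and 8.06. IL10RB, a chain of its receptor, had 9.30 ± 0.07. Of 26 integrins 7 were detected (26.9%), ITGB2 at 9.55 ± 0.15, whereas its partner ITGAL was detected on 0. Of 15 Fc receptor and FCRL genes 8 were detected on 3 arrays (53.3%), with FCRLA and the inhibitory receptor FCGR2B the brightest. FCRL1, FCRL3 and FCRL4 were detected on 0. Of 15 sphingosine 1-phosphate and P2Y receptors 6 were detected (40.0%). P2RY8, a brake on germinal centre B cells that signals through GNA13, had 7.46 ± 0.06.

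Antigen presentation was detected nearly complete. Of 14 MHC class II genes 13 were detected on 3 arrays (92.9%, against 43.4% of all genes), and HLA-DQB1 on 2. CD74 had 11.72, 11.76 and 11.79, and HLA-DRA had 11.28, 11.40 and 11.12. Of 12 MHC class I genes 11 were detected (91.7%), with B2M at 12.45 ± 0.14. HLA alleles differ in sequence, so their signals depend on the match of probe and allele. Of the costimulatory genes CD48 (10.23 ± 0.15), CD70, CD86 (7.45 ± 0.01), CD47 and CD58 were detected on 3 arrays and CD80 and ICOSLG on 2. The checkpoint genes CD274, PDCD1LG2, CTLA4, BTLA, LAG3 and HAVCR2 were detected on 0.

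The receptors that the parent study addresses were read at baseline. SCARB1, the HDL receptor, had 8.42, 8.27 and 8.31, a mean of 8.33 ± 0.08 at the 87.5th percentile. LRP8 had 7.29, 7.01 and 7.26, and the cholesterol exporters ABCA1 and ABCG1 had 5.74 ± 0.22 and 5.99 ± 0.23. VLDLR was detected near background with 4.57, 4.62 and 4.84, and the scavenger receptors CD36, MSR1, OLR1 and STAB1 and the receptor LRP1 were detected on 0. Of 20 measured cholesterol synthesis genes 19 were detected on 3 arrays, with a median percentile of 85.0. ACAT2, HMGCS1, SQLE and PMVK were the brightest at 9.86 ± 0.11, 9.50 ± 0.11, 9.48 ± 0.02 and 9.08 ± 0.08. IDI2, known from muscle, was detected on 2.

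Of 8 glutathione peroxidases 3 were detected on 3 arrays (37.5%, against 43.4% of all genes). GPX4, which reduces lipid peroxides in membranes, had 10.76, 10.86 and 10.76, GPX1 had 8.89, 8.78 and 8.88, and GPX7 had 5.69, 5.34 and 5.18. The other GPX1 probe had a mean of 4.22 and was detected on 0 arrays. GPX2, GPX3, GPX5 and GPX6 were detected on 0 and GPX8 on 1. ALOX5AP, the activator of 5-lipoxygenase, had 12.30, 12.09 and 12.37, while the enzyme gene ALOX5 had 4.23, 4.21 and 4.71 and was detected on 1 array. ALOX12, ALOX15, ALOX12B and PTGS2 were detected on 0. The acyl-CoA synthetases ACSL4 (7.52 ± 0.30), ACSL5 (7.47 ± 0.06) and ACSL1 (6.14 ± 0.25) were detected on 3. The other ACSL4 probes had means of 4.55, 4.26 and 4.21, detected on 1, 0 and 0 arrays. Those of ACSL5 had means of 5.64, 4.5, 4.3 and 4.2, detected on 3, 1, 0 and 0 arrays. Among the glutathione transferases GSTP1 was the brightest at 11.94 ± 0.08, and 8 of 16 were detected on 3.

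Some metabolic isozymes known as tissue forms were at background and others were detected. For cytochrome oxidase, the 5 broadly used subunits COX4I1, COX7A2, COX8A, COX6B1 and COX6A1 were detected on 3 arrays with means of 10.90 to 12.86, and the 5 tissue forms COX4I2, COX6A2, COX6B2, COX7A1 and COX8C were detected on 0. LDHA (12.77 ± 0.03) and LDHB (11.39 ± 0.23) were detected and the testis form LDHC was not. PGK1 and PGAM1 were detected and their testis or muscle forms PGK2 and PGAM2 were not, while of the enolases ENO1 and the muscle form ENO3 (5.35 ± 0.28) were detected and the neuronal form ENO2 was not. The brain aldolase ALDOC had 9.53, 8.85 and 9.22 and the muscle phosphofructokinase PFKM had 9.67, 9.64 and 9.75, both detected on 3 arrays. HK1 and HK2 were detected and HK3 was not. HK1 had a mean of 8.23 on 1 probe, and its other probes had means of 4.21 to 4.26, detected on 0 arrays. Of 12 glucose transporters SLC2A1 (8.97 ± 0.06), SLC2A8, SLC2A5 and SLC2A6 were detected on 3 arrays and SLC2A3 on 2. The creatine kinases CKB, CKM, CKMT1A, CKMT1B and CKMT2 were detected on 0.

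Of 13 measured noncoding genes, TUG1 (9.73 ± 0.18), DLEU1 (8.30 ± 0.01), MIR155HG (6.55, 6.62 and 6.42), PVT1 and MIR17HG, the host of a MYC-driven microRNA cluster, were detected on 3 arrays. MIR155HG, the host of miR-155, is known to be low in Burkitt tumors, and its signal lay at the 74.3rd percentile. MALAT1, GAS5, H19, HOTAIR, MIAT, MEG3 and DLEU2 were detected on 0, although MALAT1 and GAS5 are known as abundant transcripts in many cells. Of 561 microRNA genes 16 were detected on 3 arrays (2.9%), and 10 at a detection p under 0.01, led by MIR586 and MIR1228, both at 7.27. Mature microRNAs are too short for this labelling, so such a probe reads at most a precursor or a host transcript.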

How the data were processed

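RNA was measured on Illumina HT-12 arrays. The authors deposited, for every probe of each array, the average intensity over its beads together with a p-value of detection. Per the file headers the table is not normalized, and the scanner software is not given in the sources used here. A second deposited table holds values of unstated unit, with medians of 3.10, 3.44 and 3.01 on the PBS arrays. By probe these come to a median 3.19%, 3.35% and 3.15% of that array's intensity. The scale, centring and direction of that table are unknown. It may hold an error over beads and not a signal, and it served only as an alternative.

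R 4.3.3 with limma 3.58.1 gave the signals. Its neqc function, run on the 3 PBS arrays alone, estimated background from probes' detection p-values, applied normexp with an offset of 16, quantile normalized and took log2. Of 47323 probes, 30113 had 1 symbol, 8 several and 17202 are unnamed here; 30074 matched the GRCh38.p14 gene table by gene ID. The 19951 genes comprised 13292 with 1 probe and 6659 with several. Of the 3502 genes of several probes with one detected on 3 arrays, 1503 also had a probe detected on 0. XIST and Y-linked genes were left out. Lists (70, with 839 of 908 entries measured) and 45 families by symbol pattern were described with Python 3.11.15 and pandas 2.3.3. Members, lists and tests were chosen with earlier results of these data known, and the interferon and S100 patterns were mended and 2 patterns dropped after wrongly matched members were seen. Named genes are the 25 brightest, the 6 markers, list members, the 3 brightest of a family and the 5 widest in SD; a few others were chosen after their values were seen. Collapsing and normalization were tested on simulated data. No test was made, and the number of arrays limits the precision. Alternatives were a detection p under 0.01, the brightest probe only, no background correction, median scaling, all 9 arrays, the mean of all probes, the second table and leaving out each array.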

Additional observations from a re-analysis of the deposited data

How the results depend on the processing

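Leaving out each PBS array in turn gave 8894 to 9025 genes detected on both arrays left and 9124 to 9296 detected on neither, against 8662 and 8602 with 3 arrays; of the listed genes 391 to 399 were detected on both, against 383 on 3. Asking for fewer arrays can only keep or raise such counts, for lists and families too, so the rise itself is no result. A detection p under 0.01 gave 7972 genes detected on 3 arrays and 10501 on 0, and reading only the brightest probe gave 8656 and 8634. Both of these settings can only keep or lower the count on 3 arrays and keep or raise that on 0. Counts for lists and families stayed within 1.5 times in 553 of 575 cases. The 22 that did not were small counts, among them the T-cell, myeloid and neuronal lists, each with 1 gene detected on 3 arrays at a detection p under 0.01, where the fall follows from the stricter threshold. Of the 25 brightest genes 13 remained when all probes of a gene were averaged, 21 in the second deposited table and 24 or 25 under the other 6 settings. The averaging itself lowered genes whose probes disagree, such as CLUAP1 at the 83.9th percentile. With the averaging, MME fell to the 70.1st percentile, against 91.5 from its brightest probe. In the second table CD22 and MYBL1 stood at the 51.2nd and 45.3rd percentile, against 64.7 and 59.2, but that table may hold measurement errors and not signals, which limits what its order means. No paired analysis was possible because no groups were compared. Genes near background, with a signal of about 4.5, cannot be ordered by these arrays.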

Other observations

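Probes of the same gene often disagreed at high signal. Of 393 genes with several probes and a brightest mean signal of at least 10, 80 had another probe detected on 0 arrays, and in 38 every other probe was. F2R, a thrombin receptor, had 13.09, 12.90 and 12.94 on 1 probe, and its other probe had 4.36, 4.2 and 4.22. ITIH5, which encodes a hyaluronan-binding protein, had a mean of 12.25 on 1 probe and of 4.23 to 4.32 on the other 4. KCNH6, a potassium channel, had 9.58 on 1 probe and 4.26 and 4.21 on the others. LAIR1 and CLUAP1, both among the 25 brightest, had 4.65 on the second probe of LAIR1 and 4.68 to 6.36 on the other 4 probes of CLUAP1. TMSB4X, an actin-binding peptide known to be abundant in lymphocytes, had 13.48 and 4.21 on its 2 probes. These genes were chosen after their values were seen, and whether the bright probe, an isoform or a related transcript accounts for the gap was not tested.

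The share of protein-coding genes detected on 3 arrays also varied by chromosome, among those with at least 100 measured genes. It was highest on chromosome 16 (56.0% of 728) and chromosome 22 (55.2% of 391) and lowest on the X chromosome (36.0% of 741), chromosome 11 (40.2% of 1200) and chromosome 4 (40.4% of 676), against 46.8% of all protein-coding genes. Without olfactory and taste receptors, keratins and their associated proteins, beta-defensins and protocadherins, the share was 47.1% on chromosome 11 and 59.0% on chromosome 21 (46.0% with them), while the X chromosome stood at 36.2% and chromosome 4 at 40.6%.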
